A study of Mus musculus with 15 samples.

Results

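SOX9-Halo spheroids were compared with Halo-NLS control organoids across all genes, using 6 of the 15 poly-A RNA libraries of a study on mouse small intestinal organoids. The libraries were taken by their labelled condition alone, 3 for each condition, and no expression value entered the choice. Organoids grown from small intestinal crypts of female C57BL/6J mice were transduced with lentivirus and selected with antibiotic. Halo-NLS organoids carried L30prom_V5-Halo-GDGAGLIN-NLS_IRES_Puro, in which the L30 promoter drives the HaloTag joined to a nuclear localization signal. The spheroids carried L30prom_Sox9-GDGAGLIN-Halo-V5_IRES_Puro, with SOX9 joined to the HaloTag under the same promoter, and in addition L30prom_H2B-GDGAGLIN-mEGFP-V5_IRES_Zeo, a green fluorescent histone H2B added by a further transduction. The 3 remaining conditions are SOX9-Halo budding organoids, SOX9-mEGFP budding organoids and SOX9-mEGFP spheroids. Their libraries enter the gene filter, the scaling and the fit, which were made over all 15 libraries. Otherwise they are used here only for their levels of genes and chromosome segments. Spheroids are rounded cultures without the buds of a normal organoid, and this line had been passaged for much longer than the Halo-NLS line. SOX9, shape, time in culture and the additional transgene therefore differ together between the conditions, and their parts cannot be told apart. The study's methods call the 3 libraries of a condition biological replicates, harvested within a few passages of each other, and the labels do not tie them to separate cultures. The p-values rest on the spread between libraries within a condition, estimated over all 15 libraries of the 5 conditions. Each condition is 1 line.

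SOX9 is an HMG-box transcription factor made by stem and progenitor cells of the intestinal crypt and by Paneth cells. In the adult small intestine the crypt produces absorptive enterocytes, which carry a brush border and take up nutrients, and the secretory Paneth, goblet, enteroendocrine and tuft cells. Intestinal identity is maintained by factors such as CDX2, HNF4A and GATA4, whereas fetal or regenerating epithelium grows as spheroids in culture and expresses another set of genes, several of them targets of the Hippo pathway effectors YAP and TAZ.

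Between 28062722 and 34387436 reads per library were counted on genes. Values are given as normalized counts, which are counts scaled by the TMM method to the mean library size of the series. Of the Halo-NLS libraries, replicate 3 had a count for 40375 genes, against 24214 to 29003 in the other 5 libraries, and replicate 1 had 4.44% of its counts on mitochondrial genes, against 1.97% to 2.47%. Correlations of log2 CPM, counts scaled by library size, ran from 0.9599 to 0.9708 within Halo-NLS and from 0.9858 to 0.9936 within the spheroids. Most epithelial markers looked up were expressed in both conditions. Of 8 listed 7 were tested, of which 1 was called up and 2 down, and 1 had at most 3 counts in each of the 6 libraries. The list took 0.552, 0.678 and 0.776% of counts in Halo-NLS and 0.727, 0.736 and 0.693% in spheroids. Cdh1, which encodes E-cadherin, had 17110, 27490 and 17220 normalized counts in Halo-NLS and 28110, 27840 and 30340 in spheroids (log2 fold change 0.48 ± 0.23, adjusted p = 0.098), and Epcam, an epithelial adhesion molecule, had 35510, 33640 and 30850 and 16220, 15400 and 14770 (log2 fold change -1.11 ± 0.16, adjusted p = 3.6e-05). Markers of other cell types were scarce. The lists for immune cells (10 genes), fibroblasts (8), endothelium (6), smooth muscle (5) and neurons and glia (6) each took at most 0.00144% of the counts of any of the 6 libraries. In bulk RNA, fewer cells of a type and less RNA per cell cannot be told apart. A count of 0 leaves room for up to 3 counts at such depth, and limits of this kind cover counting error only.

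Sox9 (ENSMUSG00000000567, chromosome 11) was checked first because it is the gene delivered to the spheroid line. It had 515, 769 and 306 normalized counts in the Halo-NLS libraries and 10520, 14830 and 14810 in the spheroid libraries, with no overlap (log2 fold change 4.66 ± 0.64, adjusted p = 2.7e-05). Reads from the transgene and from the endogenous gene were counted together. Among other SOX genes, Sox21 rose from 376, 507 and 608 to 1179, 1769 and 1861 (log2 fold change 1.69 ± 0.29, adjusted p = 0.00019), and Sox12 fell from 314, 484 and 344 to 3.55, 7.57 and 16.2 (log2 fold change -5.33 ± 0.52, adjusted p = 8.8e-07). Sox4, a SOX gene of many progenitor cells, was not called (log2 fold change -0.83 ± 0.41, adjusted p = 0.11). Of the 19 SOX genes looked up, 7 were abundant enough to be tested.

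Between SOX9-Halo spheroids and Halo-NLS organoids, 2392 of 17560 genes tested were upregulated (13.6%) and 2682 downregulated (15.3%). A call required an adjusted p no higher than 0.01, a change of 2-fold or more and 10 or more normalized counts on average over the 15 libraries. The p-values come from the quasi-likelihood test of edgeR, fitted over the 15 libraries. They were adjusted over all genes tested by the Benjamini-Hochberg method. Values after ± are standard errors of the log2 fold change from the same fit (3 libraries per condition). By fitted fold, the losses were deeper than the gains. The median absolute log2 fold change was 3.35 among downregulated and 2.23 among upregulated genes, and 412 genes fell by 8 or more on the log2 scale, against 101 that rose by as much. Where libraries are at or near 0 the fitted fold is not a bound. Halo-NLS replicate 3 had a count for more genes than the other libraries compared, and its part in this difference was not tested. Downregulated genes took 27.5%, 29.1% and 23.8% of the counts of the Halo-NLS libraries and 6.72%, 6.69% and 6.37% of those of the spheroid libraries. Upregulated genes went from 3.73%, 3.49% and 2.95% to 16.9%, 16.8% and 17.6%. The 3 libraries of one condition all lay above those of the other for 9629 genes (54.8% of those tested). With library sizes alone in place of TMM, the median log2 fold change of all genes moved from -0.01 to 0.28 and the share of calls that were upregulated from 47.1% to 58.2% (3102 up and 2229 down). Without Halo-NLS replicate 1 the counts were 3146 and 2720, and without Halo-NLS replicate 3 they were 2079 and 2549. A fit to the 6 libraries alone called 1967 up and 2346 down.

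**Figure D1:**
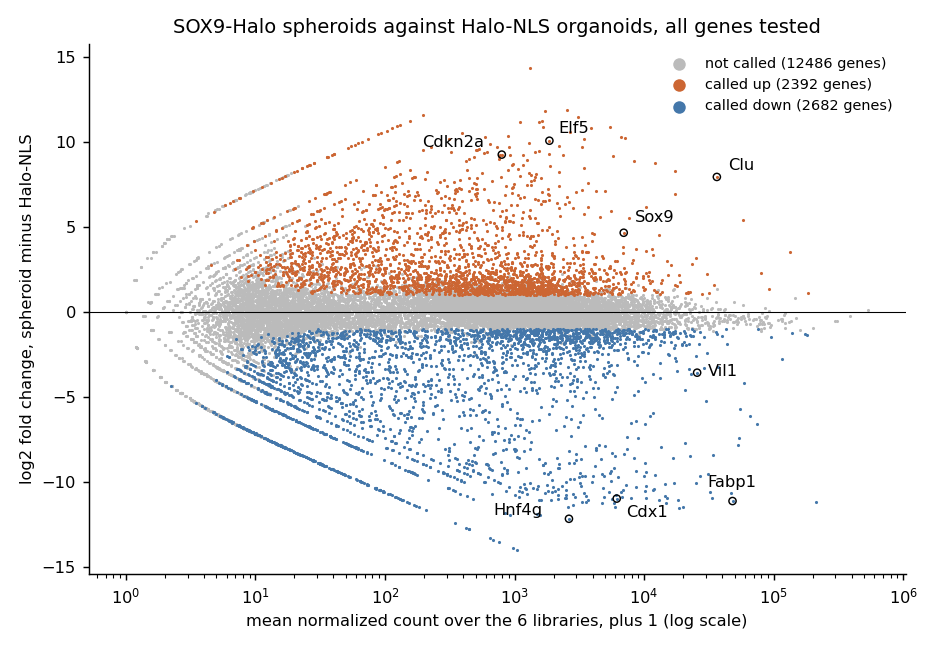
Each point is 1 of 17560 genes, with its mean normalized count over the 6 libraries plus 1 on a log axis and its fitted log2 fold change (spheroid minus Halo-NLS) on the vertical axis, coloured by call. Among the circled genes, Fabp1 lies at the lower right with a fall of 11.14, and Clu at the upper right with a rise of 7.95. Points on the curved outer edges have libraries at or near 0, where the fitted fold is not a bound.

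The 10 largest gains in normalized count were those of 7 protein-coding genes and 3 long noncoding RNAs. Scd2, a stearoyl-CoA desaturase, had 115700, 157900 and 76610 in Halo-NLS and 268700, 238700 and 238000 in spheroids (log2 fold change 1.09 ± 0.27, adjusted p = 0.0039). The Scd2 call was lost in 7 of the alternative fits, among them the fit to the 6 libraries alone (adjusted p = 0.012) and 5 of the 6 fits that left out a library (log2 fold change from 0.86 to 1.10). Clu, which encodes the secreted chaperone clusterin, had 142, 215 and 525 and 63690, 69510 and 84510 (log2 fold change 7.95 ± 0.61, adjusted p = 8.5e-08), so that every spheroid library lay more than 100 times above every Halo-NLS library. Pabpc1, a poly(A) binding protein, had 59330, 62970 and 30910 and 91530, 139300 and 166300 (log2 fold change 1.37 ± 0.32, adjusted p = 0.0028). Ly6e (log2 fold change 3.17 ± 0.28, adjusted p = 3.4e-07), the glutathione peroxidase gene Gpx2 (log2 fold change 2.21 ± 0.40, adjusted p = 0.00034), Krt7 (log2 fold change 2.82 ± 0.29, adjusted p = 1.8e-06) and Krt18 (log2 fold change 1.58 ± 0.23, adjusted p = 3.9e-05) completed the protein-coding members of the 10 largest gains. The remaining 3 were unnamed or predicted long noncoding RNAs. ENSMUSG00000141158 on chromosome 11 had the largest gain of all, from a mean of 21800 to 246400 normalized counts, and ENSMUSG00000127251 on chromosome 4 rose from 2608 to 113000. The mean of ENSMUSG00000127251 was 28.55 in SOX9-mEGFP budding organoids and 64.99 in SOX9-mEGFP spheroids.

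The largest losses in normalized count included genes of fructose and glucose metabolism. Tkfc, a triokinase of fructose breakdown, had 127000, 193900 and 117200 normalized counts in Halo-NLS and 1515, 1462 and 1529 in spheroids (log2 fold change -6.60 ± 0.53, adjusted p = 1.2e-07), and Pklr, the pyruvate kinase of liver and gut, had 90400, 150500 and 75880 and 614, 414 and 360.1 (log2 fold change -7.84 ± 0.61, adjusted p = 9.6e-08). In both the conditions were far apart. Metallothionein gene Mt1 (log2 fold change -2.75 ± 0.31, adjusted p = 4.3e-06), the galectin gene Lgals4 (log2 fold change -6.15 ± 0.42, adjusted p = 3e-08), the goblet cell gene Fcgbp (log2 fold change -7.44 ± 0.87, adjusted p = 5.8e-06) and ornithine aminotransferase Oat (log2 fold change -5.74 ± 0.41, adjusted p = 4e-08) were also among the 10 largest losses. The falls of Ldha, which makes lactate dehydrogenase (log2 fold change -1.22 ± 0.30, adjusted p = 0.0033), and of the mitochondrial mt-Nd1 (log2 fold change -1.31 ± 0.26, adjusted p = 0.00078) were large in counts and small in fold. The Halo-NLS library with the highest mt-Nd1 count, 343300, was replicate 1, which also had the highest mitochondrial share.

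Some genes passed between absence and clear expression. In 73 genes every Halo-NLS library had at most 3 counts and every spheroid library a normalized count of at least 100, and in 188 genes the reverse held. Of the 73, 69 are protein-coding, and of the 188, 172. The count of 73 became 156 without Halo-NLS replicate 3, the library in which the most genes had a count. Among the 73 were Rab11fip5, an adaptor of recycling endosomes, with 2.61, 1.15 and 2.51 in Halo-NLS and 5876, 6716 and 5912 in spheroids (at least 1660-fold higher), and Capn6, a calpain family member, with 3697, 3019 and 3236 in spheroids (at least 894-fold). Cryab, a small heat shock protein gene, had 2149, 2168 and 2235 in spheroids (at least 588-fold), and the cornified envelope gene Ivl had 2791, 1234 and 1275 (at least 476-fold). Chit1, a chitinase gene, had 0, 2.29 and 0 and 3376, 3677 and 3273. For each of these genes the Halo-NLS libraries were at or next to 0 and no spheroid library was under 1234 normalized counts.

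Among the 188 lost genes, Reg4, a lectin gene of enteroendocrine and goblet cells, had 7542, 5313 and 2657 in Halo-NLS and 1.18, 0.946 and 2.7 in spheroids (at least 1710-fold lower). Leap2, an antimicrobial and hormone-like peptide gene, had 5673, 3463 and 3775 and 1.18, 2.84 and 1.8 (at least 1420-fold), with 23.0% of its exon bases outside other genes. Pycard, the inflammasome adaptor ASC, went from 4036, 3680 and 3829 to 1.18, 0.946 and 2.7 (at least 1270-fold). In all of these genes the spheroid libraries were near 0. Dao, a D-amino acid oxidase, was at least 975-fold lower and Maob, a monoamine oxidase, at least 1310-fold. These examples of switched genes were chosen after their values were seen.

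The 250 bases before the start of the canonical transcript were read from GRCm39 for 13210 tested protein-coding genes and searched on both strands for short motifs of factors that the comparison touches. Of all these promoters 7.41% held the CDX motif TTTATNG, and 14.0% of those of the 172 lost genes did, 8.92% of downregulated genes and 7.08% of upregulated genes. The HNF4 motif CAAAGTC stood in 3.59% of all, in 9.3% of lost and in 5.46% of downregulated promoters, and the GATA motif AGATAAG in 2.13%, 6.4% and 3.88%. Among the 69 gained genes, 10.1% of promoters held the CDX motif, 2.9% the HNF4 motif and 2.9% the GATA motif. The AP-1 motif TGANTCA stood in 4.78% of all promoters, in 10.1% of gained, 7.56% of lost, 5.53% of upregulated and 6.35% of downregulated ones. The TEAD motif GGAATG stood in 11.6% of all, 15.9% of gained, 12.8% of lost, 12.5% of upregulated and 12.7% of downregulated ones. The SOX core ACAATG stood in 6.67% of all, 10.1% of gained, 9.88% of lost, 6.94% of upregulated and 7.1% of downregulated ones. The CDX, GATA, AP-1, TEAD and SOX core motifs were thus above the share of all promoters among gained and lost genes alike. For TEAD in lost genes the difference was small (12.8% beside 11.6%). None of these differences was tested. The longer SOX motif AACAATG, which contains the SOX core, stood in 1.92% of all, 1.45% of gained and 4.07% of lost promoters. It stood in 2.2% of upregulated and 2.1% of downregulated ones. The shares for the lost and gained genes rest on few promoters, from 1 to 24 with the motif named. A match describes letters and not a bound site.

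The promoters of a pair of lost genes (Hnf4g and Reg4) and of the gained gene Chit1 are printed because they show such motifs beside genes that went from high counts to near 0 or back. Each runs 5′ to 3′ on the gene's strand up to the base before the transcript start (GRCm39, GENCODE canonical transcript), and capitals mark the motifs named for that gene. Hnf4g (chr3:3698955-3699204, plus strand) has CDX motifs beginning 209 and 97 bases before the start, the nearer one on the minus strand, and a GATA motif at 154 bases. Reg4 (chr3:98129218-98129467, plus strand) has a GATA motif at 97 bases, and Chit1 (chr1:134038722-134038971, plus strand) an AP-1 motif at 44 bases.
Hnf4g: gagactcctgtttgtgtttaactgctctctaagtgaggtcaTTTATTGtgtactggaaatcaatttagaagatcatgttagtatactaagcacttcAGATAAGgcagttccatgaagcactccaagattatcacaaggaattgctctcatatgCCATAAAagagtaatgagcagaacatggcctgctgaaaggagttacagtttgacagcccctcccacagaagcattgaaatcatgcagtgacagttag
Reg4: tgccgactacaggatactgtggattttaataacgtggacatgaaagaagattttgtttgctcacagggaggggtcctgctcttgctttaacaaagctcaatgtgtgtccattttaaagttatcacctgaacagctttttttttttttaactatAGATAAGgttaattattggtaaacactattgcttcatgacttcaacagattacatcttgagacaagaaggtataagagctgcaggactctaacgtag
Chit1: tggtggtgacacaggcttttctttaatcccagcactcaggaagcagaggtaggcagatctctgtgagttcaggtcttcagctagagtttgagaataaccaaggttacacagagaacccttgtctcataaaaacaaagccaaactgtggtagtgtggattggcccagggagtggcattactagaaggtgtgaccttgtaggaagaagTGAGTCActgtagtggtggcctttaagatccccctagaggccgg

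Transcription factors of intestinal identity were mostly lower in spheroids. Of 30 listed genes 29 were tested, and 17 fell and 3 rose, with a median log2 fold change of -2.65 beside -0.01 for all genes tested. Hnf4a, a nuclear receptor that activates enterocyte genes, had 27690, 43910 and 46600 in Halo-NLS and 1995, 1542 and 1296 in spheroids (log2 fold change -4.61 ± 0.28, adjusted p = 9.2e-09). Its paralog Hnf4g (ENSMUSG00000017688, chromosome 3 from 3573084 to 3724860), whose promoter is printed above, had 9793, 4349 and 1625 and 2.37, 0 and 0.9 (at least 1730-fold lower, adjusted p = 3.8e-07). The Halo-NLS libraries varied more in Hnf4g than in Hnf4a, yet all lay far above the spheroid libraries. Cdx2, the homeobox factor that specifies intestine, had 11480, 16400 and 16240 and 97.1, 99.3 and 74.7 (log2 fold change -7.35 ± 0.31, adjusted p = 8.5e-10), and its paralog Cdx1 had 9656, 13180 and 14020 and 2.37, 2.84 and 11.7 (log2 fold change -11.00 ± 0.67, adjusted p = 1e-08). The GATA factors of the small intestine split, with Gata6 lower (log2 fold change -3.46 ± 0.31, adjusted p = 3.1e-07), Gata4 not called (log2 fold change -0.73 ± 0.25, adjusted p = 0.027) and Gata5 at a 2-fold rise (log2 fold change 1.01 ± 0.25, adjusted p = 0.0036).

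Several factors of enterocyte metabolism fell. Creb3l3, an ER-bound factor of lipid metabolism, had 9888, 14490 and 7829 in Halo-NLS and 13, 3.78 and 4.5 in spheroids (log2 fold change -10.60 ± 0.76, adjusted p = 4.6e-08), and Mlxipl, the carbohydrate-sensing factor ChREBP, had 10920, 17340 and 5258 and 11.8, 16.1 and 21.6 (log2 fold change -9.37 ± 0.59, adjusted p = 1.3e-08). The xenobiotic receptor gene Nr1i2 (PXR) had 3060, 3989 and 3281 and 7.11, 1.89 and 11.7 (log2 fold change -8.93 ± 0.52, adjusted p = 7.6e-09). In each of these the spheroid libraries held at most 21.6 normalized counts. Vdr, the vitamin D receptor gene, fell from 9554, 15970 and 7204 to 580.4, 952 and 993 (log2 fold change -3.69 ± 0.36, adjusted p = 7.5e-07). The bile acid receptor gene Nr1h4 (log2 fold change -2.65 ± 0.45, adjusted p = 0.0002), the fatty acid receptor gene Ppara (log2 fold change -5.18 ± 0.58, adjusted p = 3.7e-06) and Esrra (log2 fold change -1.26 ± 0.24, adjusted p = 0.00049) also fell, so that of 34 nuclear receptor genes tested 14 fell and 5 rose. In the opposite direction, Ppargc1a, a coactivator of mitochondrial genes, rose from 62.7, 39 and 30.2 to 610, 445 and 541 (log2 fold change 3.60 ± 0.36, adjusted p = 1.1e-06). Prdm1 (BLIMP1), a repressor found in the fetal intestine before weaning, rose from 57.5, 33.3 and 39 to 358, 193 and 152 (log2 fold change 2.43 ± 0.36, adjusted p = 5.2e-05).

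**Figure D2:**
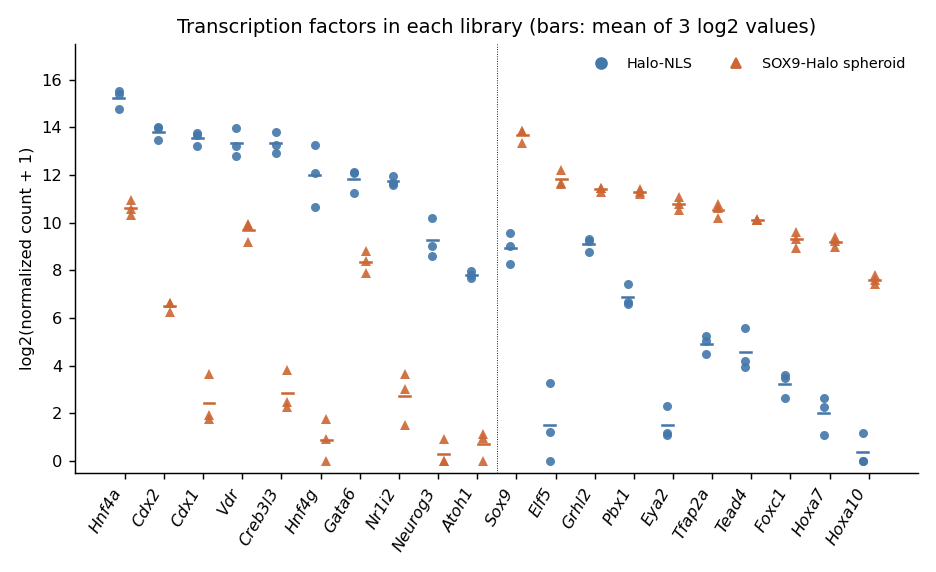
log2(normalized count + 1) of 20 transcription factor genes in each of the 3 Halo-NLS (circles) and 3 SOX9-Halo spheroid libraries (triangles), with bars at the mean of the log2 values. The 10 genes at the left were lower in every spheroid library than in any Halo-NLS library, and the 10 at the right, which include Sox9, were higher.

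Of 346 transcription factor genes tested from 26 families, 69 rose and 82 fell, with a median log2 fold change of 0.02. Elf5 (ENSMUSG00000027186, chromosome 2), an ETS factor of mammary, airway and placental epithelium, had 1.31, 0 and 8.8 in Halo-NLS and 3182, 3225 and 4723 in spheroids (log2 fold change 10.08 ± 0.83, adjusted p = 1.7e-07). Eya2, a coactivator that partners homeodomain proteins, had 3.92, 1.15 and 1.26 and 2157, 1780 and 1491 (at least 488-fold higher, adjusted p = 1.5e-09). Tfap2a (AP-2 alpha) had 36.6, 21.8 and 31.4 and 1183, 1592 and 1774 (log2 fold change 5.66 ± 0.49, adjusted p = 2.5e-07), and Grhl3, a grainyhead factor of barrier epithelia, had 57.5, 59.7 and 27.6 and 1064, 956 and 931 (log2 fold change 4.34 ± 0.42, adjusted p = 7.8e-07). Grhl1 (log2 fold change 3.39 ± 0.42, adjusted p = 1.1e-05) and Grhl2 (log2 fold change 2.27 ± 0.21, adjusted p = 4.5e-07) rose too, and of 7 genes tested in the group of p53 family, grainyhead and AP-2 factors 6 were upregulated. Foxc1, a forkhead factor of mesoderm and gland development, had 5.23, 10.3 and 11.3 and 494, 643 and 783 (log2 fold change 6.13 ± 0.62, adjusted p = 1.2e-06). Further large rises were those of Elk3 (log2 fold change 6.73 ± 0.59, adjusted p = 2.9e-07), Bhlhe41 (log2 fold change 6.25 ± 0.56, adjusted p = 3.9e-07) and Nfe2l3 (log2 fold change 7.62 ± 0.59, adjusted p = 9.5e-08), of which Nfe2l3 has 45.7% of its exon bases outside other genes.

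HOX genes, which set position along the body axis, were measured in 9 of 39 cases, and 6 of the 9 rose. Hoxa7 (ENSMUSG00000038236, chromosome 6) had 5.23, 1.15 and 3.77 in Halo-NLS and 512, 602 and 669.8 in spheroids (log2 fold change 7.43 ± 0.48, adjusted p = 1.8e-08). Hoxa10 had 0, 0 and 1.26 and 222, 194 and 173 (at least 52.8-fold higher) and Hoxa5 had 0, 1.15 and 2.51 and 127, 208 and 217 (at least 49.6-fold). All rises were within the HOXA cluster, and no Halo-NLS library reached 6 normalized counts in these 3 genes. In SOX9-mEGFP spheroids Hoxa7 ranged from 0 to 0.887, Hoxa10 was listed at 0 in every library and Elf5 ranged from 0.887 to 10.0, whereas Eya2 ranged from 881 to 1095, Tfap2a from 276 to 919 and Foxc1 from 269.8 to 485 there. The difference between the spheroid lines was not tested here.

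Genes that absorb sugars and fats were lower in spheroids. The sugar genes took 2.03, 2.33 and 1.35% of the counts of the Halo-NLS libraries and 0.0822, 0.0494 and 0.0451% of those of the spheroid libraries, and 12 of 14 fell (median log2 fold change -8.20, or -7.13 with genes at the count limit set to their bound). Slc5a1, the sodium-glucose cotransporter SGLT1, had 57520, 85050 and 42350 in Halo-NLS and 77, 68.1 and 104 in spheroids (log2 fold change -9.53 ± 0.84, adjusted p = 3.2e-07). The fructose transporter gene Slc2a5 had 4653, 8751 and 11400 and 17.8, 10.4 and 17.1 (log2 fold change -9.09 ± 0.55, adjusted p = 9.5e-09), and the basolateral exporter gene Slc2a2 had 6254, 5430 and 2349 and 5.92, 0 and 5.4 (log2 fold change -10.27 ± 0.83, adjusted p = 1.3e-07). In all of these carriers no spheroid library passed 104 normalized counts and no Halo-NLS library fell under 2349. The fructokinase gene Khk fell less, from 58080, 62060 and 57020 to 1920, 1656 and 1106 (log2 fold change -5.24 ± 0.52, adjusted p = 1.1e-06). G6pc1, the catalytic subunit of glucose 6-phosphatase, was at least 1050-fold lower.

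For dietary fat, 20 of 24 tested genes of 25 listed fell (median -6.67, or -5.58 with bounds). Fabp1, a fatty acid binding protein gene of enterocytes, had 136600, 77920 and 74110 in Halo-NLS and 40.3, 22.7 and 63.9 in spheroids (log2 fold change -11.14 ± 1.05, adjusted p = 6e-07). The apolipoprotein genes Apoa1, with 40970, 39620 and 30930 and 7.11, 6.62 and 22.5 (log2 fold change -11.54 ± 0.82, adjusted p = 4e-08), and Apoa4, with 41560, 46240 and 31380 and 9.48, 7.57 and 22.5 (log2 fold change -11.52 ± 0.90, adjusted p = 9.6e-08), moved alike, though only 30.2% of the exon bases of Apoa4 lie outside other genes. Mttp, which loads lipid onto chylomicrons, fell from 48580, 53140 and 22760 to 205, 167 and 205 (log2 fold change -7.75 ± 0.60, adjusted p = 9.9e-08). General lipid genes of the same list did not follow, as Acsl5, an acyl-CoA synthetase gene (log2 fold change -0.53 ± 0.28, adjusted p = 0.13), and the lipid droplet gene Plin2 (log2 fold change -0.04 ± 0.28, adjusted p = 0.93) were not called.

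Amino acid transporters changed in both directions. Of 15 genes tested 7 fell and 2 rose (median -0.54). Among those that fell were apical carriers of enterocytes. The neutral amino acid carrier gene Slc6a19 had 5156, 8619 and 5272 in Halo-NLS and 5.92, 2.84 and 8.1 in spheroids (log2 fold change -10.11 ± 0.59, adjusted p = 7.7e-09), the cystine carrier gene Slc7a9 was at least 1020-fold lower, and the peptide transporter gene Slc15a1 at least 101-fold lower. The members that rose were Slc7a5 (LAT1), a carrier of large neutral amino acids, at 2780, 3524 and 4285 and 20030, 15290 and 16570 (log2 fold change 2.29 ± 0.36, adjusted p = 0.0001) and the glutamate carrier gene Slc1a1 at 425, 456 and 280.3 and 2206, 2725 and 2831 (log2 fold change 2.74 ± 0.33, adjusted p = 6.3e-06). Slc3a2, the partner chain of LAT1, was not called (log2 fold change 0.36 ± 0.24, adjusted p = 0.23). Of 10 bile acid and ileal genes tested 8 fell (median -5.82, or -5.30 with bounds), among them Abcc2, an apical exporter of conjugates (log2 fold change -9.20 ± 0.63, adjusted p = 3e-08), Slc51b, a chain of the basolateral bile acid exporter (at least 97.7-fold lower), and Amn, a part of the vitamin B12 receptor (log2 fold change -8.91 ± 0.50, adjusted p = 5.9e-09).

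**Figure D3:**
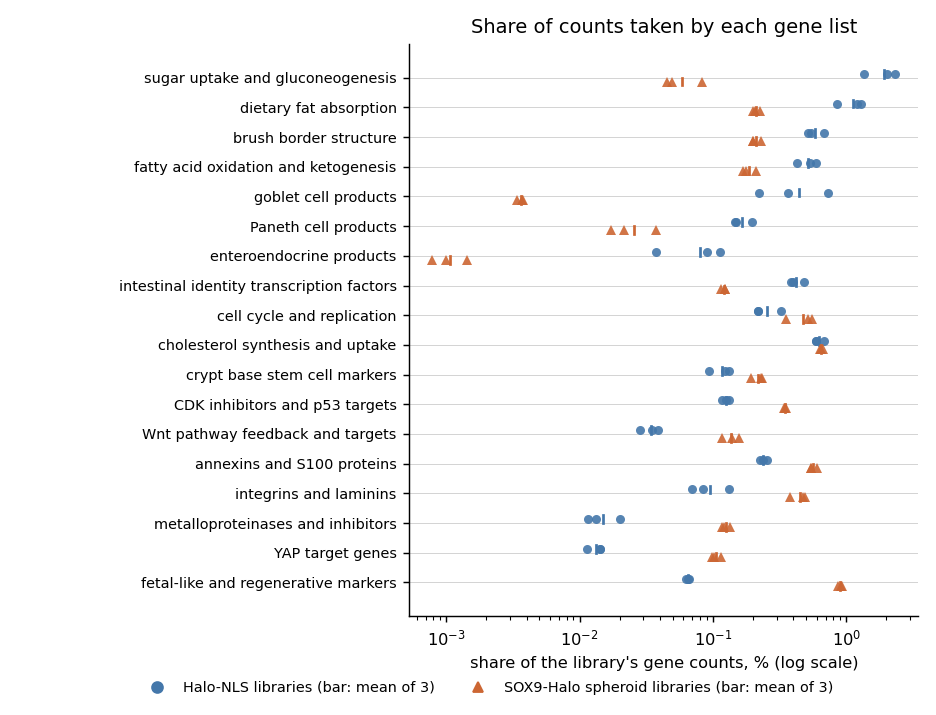
Share of each library's gene counts, in percent on a log axis, taken by 18 gene lists in the 3 Halo-NLS libraries (circles) and the 3 SOX9-Halo spheroid libraries (triangles), with short bars at the mean of 3. Sugar uptake genes lie between 1.35% and 2.33% in Halo-NLS and between 0.0451% and 0.0822% in spheroids, and fetal-like markers between 0.0631% and 0.0661% and between 0.861% and 0.929%, while the libraries overlap for cholesterol synthesis.

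The microvillus and its enzymes fell in part. Of 24 genes of brush border structure tested, 15 fell (median -3.71). Vil1, which encodes the actin bundler villin, had 34090, 58790 and 49220 in Halo-NLS and 4635, 3985 and 3244 in spheroids (log2 fold change -3.58 ± 0.28, adjusted p = 1.2e-07), and the intermicrovillar adhesion genes fell further, with Cdhr5 at 21260, 27680 and 13610 and 8.29, 3.78 and 18 (log2 fold change -10.98 ± 0.59, adjusted p = 4.1e-09) and Ush1c at 8758, 12130 and 12410 and 7.11, 4.73 and 20.7 (log2 fold change -9.95 ± 0.55, adjusted p = 4.7e-09). Ezr, the membrane-actin linker ezrin, was not called (log2 fold change 0.77 ± 0.23, adjusted p = 0.011). Of 16 brush border enzymes tested 15 fell (median -8.42, or -8.34 with bounds), including Alpi, the intestinal alkaline phosphatase gene, from 25210, 34390 and 17880 to 5.92, 5.68 and 22.5 (log2 fold change -11.09 ± 0.71, adjusted p = 1.6e-08).

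Metabolic lists differed in how far they moved. In fatty acid oxidation and ketogenesis 16 of 20 tested genes fell (median -1.73). Hadh, a mitochondrial dehydrogenase gene of that path, had 42400, 43440 and 36560 in Halo-NLS and 4781, 3558 and 3492 in spheroids (log2 fold change -3.37 ± 0.30, adjusted p = 3.4e-07), and the peroxisomal thiolase gene Acaa1b had 6119, 8759 and 5122 and 8.29, 6.62 and 9 (log2 fold change -9.69 ± 0.75, adjusted p = 9.3e-08). In cholesterol synthesis and uptake 1 of 22 genes was called (median -0.02). The median of that list was 0.27 with library sizes alone. In glycolysis, 2 of 20 tested genes rose and 3 fell, near the shares of all genes tested (13.6% up and 15.3% down). Hexokinase gene Hk1 had 3601, 5850 and 4716 and 17200, 16960 and 16840 (log2 fold change 1.85 ± 0.38, adjusted p = 0.00091), and the lactate exporter gene Slc16a3 had 24150, 28050 and 40810 and 5251, 4172 and 3045 (log2 fold change -2.90 ± 0.39, adjusted p = 2.1e-05), while Gapdh was not called (log2 fold change -0.51 ± 0.34, adjusted p = 0.23).

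Among glutathione and NRF2 genes 5 of 24 rose and 8 fell. Gclc, the rate-limiting enzyme of glutathione synthesis, had 1990, 2349 and 1019 in Halo-NLS and 14950, 8460 and 6091 in spheroids (log2 fold change 2.46 ± 0.36, adjusted p = 5.5e-05). The glutathione transferase gene Gstm3 had 119300, 126200 and 36100 and 53.3, 30.3 and 85.5 (log2 fold change -10.69 ± 0.85, adjusted p = 1.2e-07), and the quinone reductase gene Nqo1 had 3896, 3798 and 1444 and 54.5, 41.6 and 16.2 (log2 fold change -6.36 ± 0.60, adjusted p = 5.8e-07). Genes known as NRF2 targets were thus found in both directions, Hmox1 (heme oxygenase 1) rising from 704, 678 and 666 to 9219, 3499 and 2487 (log2 fold change 2.89 ± 0.39, adjusted p = 2.5e-05) with replicate 1 the highest spheroid library for both Gclc and Hmox1.

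Ion carriers and channels changed in both directions. Of 31 genes of chloride and fluid transport tested, 16 fell and 7 rose (median -1.23). Slc9a3, the apical sodium-proton exchanger NHE3, had 2207, 3118 and 1154 in Halo-NLS and 0, 0 and 2.7 in spheroids (at least 713-fold lower), and the chloride-bicarbonate exchanger gene Slc26a3 had 3416, 878 and 952 and 3.55, 0.946 and 3.6 (log2 fold change -9.29 ± 1.04, adjusted p = 3.6e-06). The chloride channel gene Cftr fell from 849.5, 156 and 152 to 8.29, 6.62 and 10.8 (log2 fold change -5.46 ± 0.69, adjusted p = 1.2e-05), with replicate 1 the highest Halo-NLS library in Cftr and Slc26a3. The calcium-activated chloride channel gene Ano1 rose from 24.8, 28.7 and 54 to 4115, 2985 and 2801 (log2 fold change 6.52 ± 0.58, adjusted p = 3.5e-07). The potassium channel gene Kcnn4 had 73.2, 127 and 353 and 6502, 9503 and 10820 (log2 fold change 5.60 ± 0.56, adjusted p = 1e-06) and the carbonic anhydrase gene Car2 had 98, 78 and 35.2 and 10370, 9008 and 10310 (log2 fold change 7.13 ± 0.47, adjusted p = 1.8e-08). Gucy2c, the receptor for guanylin peptides, fell (log2 fold change -8.11 ± 0.41, adjusted p = 2.7e-09), as did its ligand gene Guca2b (log2 fold change -10.87 ± 0.65, adjusted p = 9.3e-09).

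Factors and products of most secretory lineages were low in the spheroid libraries. Of 25 secretory transcription factors tested 16 fell and 1 rose (median -2.60). Atoh1, which commits progenitors to the secretory fate, had 225, 251 and 205 in Halo-NLS and 1.18, 0.946 and 0 in spheroids (at least 74.9-fold lower). Neurog3, the enteroendocrine determinant, had 391, 515 and 1177 and 0, 0 and 0.9 (at least 229-fold) and Insm1, a factor of endocrine cells, 486, 616 and 724 and 0, 0 and 0.9 (at least 201-fold). Each was at or next to 0 in every spheroid library. The goblet cell factor gene Spdef fell less (log2 fold change -2.60 ± 0.31, adjusted p = 7.1e-06), and Foxa1, which has roles in goblet and endocrine cells and in early endoderm, rose from 818, 933 and 468 to 1477, 2076 and 2418 (log2 fold change 1.43 ± 0.33, adjusted p = 0.0022). In SOX9-mEGFP spheroids Atoh1 ranged from 244 to 340 and Neurog3 from 8.57 to 22.2.

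Products of these cells followed. Of 18 Paneth cell products tested of 21 listed, 14 fell and 1 rose (median -7.67, or -5.13 with bounds). The lysozyme gene Lyz1 had 27530, 22350 and 21590 in Halo-NLS and 10.7, 12.3 and 27.9 in spheroids (log2 fold change -10.42 ± 0.54, adjusted p = 2.9e-09), the intelectin gene Itln1 19490, 16920 and 16650 and 166, 87 and 61.2 (log2 fold change -7.41 ± 0.38, adjusted p = 2.9e-09), and Ang4, an antimicrobial ribonuclease gene, was at least 978-fold lower. The exception was Habp2, a serine protease gene, with 396, 572 and 705 and 7133, 5345 and 3875 (log2 fold change 3.29 ± 0.32, adjusted p = 7.3e-07). Of 18 goblet cell products tested 14 fell (median -6.88, or -6.53 with bounds). The trefoil factor gene Tff3 had 29260, 32060 and 25810 and 37.9, 18.9 and 22.5 (log2 fold change -10.11 ± 0.62, adjusted p = 1e-08), and Agr2, a disulfide isomerase gene needed for mucin folding, had 5961, 3412 and 5658 and 7.11, 6.62 and 0.9 (log2 fold change -10.02 ± 0.61, adjusted p = 9.5e-09). In SOX9-mEGFP spheroids Tff3 ranged from 19850 to 22760 and Agr2 from 5734 to 10840.

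Of 19 enteroendocrine products tested 17 fell (median -9.58, or -6.39 with the 15 genes at the count limit set to their bound). Chgb, a granin of hormone granules, had 24710, 15930 and 6662 in Halo-NLS and 7.11, 5.68 and 9.9 in spheroids (log2 fold change -10.99 ± 0.92, adjusted p = 1.9e-07), and the hormone genes Cck and Tac1 were at least 786-fold and 229-fold lower. The tuft cell list did not share this pattern, with 2 of 15 tested genes lower and 3 higher, and Dclk1, a tuft cell kinase, not called (log2 fold change -0.33 ± 0.89, adjusted p = 0.78). At most 3 counts in every library of 1 condition were found for 5 of the 15. A missing call at such levels does not show unchanged expression. The members that rose are not restricted to tuft cells. They were the cyclooxygenase gene Ptgs1, with 6.54, 3.44 and 2.51 and 2945, 3078 and 3158 (log2 fold change 9.49 ± 0.36, adjusted p = 3.4e-10), Cd24a (log2 fold change 2.17 ± 0.20, adjusted p = 6.2e-07) and the leukotriene synthase gene Ltc4s (log2 fold change 2.33 ± 0.37, adjusted p = 0.00012).

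Crypt base stem cell markers did not move as 1 group. Of 23 tested, 7 rose and 5 fell (median 0.39). Lgr5, the receptor that marks crypt base columnar cells, had 379, 372 and 411 in Halo-NLS and 238, 342 and 387 in spheroids (log2 fold change -0.26 ± 0.53, adjusted p = 0.71), and Ascl2, a transcription factor of these stem cells, had 208, 298 and 861 and 214, 192 and 230.5 (log2 fold change -1.10 ± 0.56, adjusted p = 0.12). For both the conditions overlapped and the test was not passed. Olfm4, another marker of these cells, had 920.1, 484 and 3726 and 3.55, 4.73 and 9.9 (log2 fold change -8.07 ± 1.74, adjusted p = 0.0014), and Smoc2 3431, 5589 and 9401 and 233, 389 and 411 (log2 fold change -4.15 ± 0.77, adjusted p = 0.00041), in each case with replicate 3 the highest Halo-NLS library. Tnfrsf19 (TROY) rose from 51, 29.8 and 61.6 to 2274, 1688 and 1706 (log2 fold change 5.31 ± 0.75, adjusted p = 3.5e-05) and Prom1 from 4696, 4724 and 2650 to 20140, 17960 and 14310 (log2 fold change 2.12 ± 0.24, adjusted p = 4.3e-06).

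Wnt signalling genes changed in both directions. Of 28 tested genes of 38 listed, 13 rose and 5 fell (median 1.06). Among ligands, Wnt3, which Paneth cells supply to the crypt, had 244, 362 and 485 in Halo-NLS and 0, 0 and 0 in spheroids (at least 120-fold lower). Wnt7b had 0, 2.29 and 1.26 and 3609, 3093 and 3006 (at least 872-fold higher), and Wnt4 had 14.4, 8.03 and 26.4 and 796, 416 and 335 (log2 fold change 4.98 ± 0.70, adjusted p = 3.2e-05). Wnt3 was thus at 0 in the spheroids, and Wnt7b and Wnt4 were near 0 in Halo-NLS. Among receptors, Fzd6 rose from 77.1, 157 and 86.7 to 2278, 2457 and 2464 (log2 fold change 4.48 ± 0.29, adjusted p = 1.7e-08), Fzd3 was at least 65.2-fold higher, and Fzd5, a frizzled of the crypt, fell (log2 fold change -1.02 ± 0.23, adjusted p = 0.0022). Several negative regulators that Wnt signalling itself induces rose, among them Nkd1 (ENSMUSG00000031661, chromosome 8) at 34, 75.7 and 74.2 and 2795, 4820 and 5400 (log2 fold change 6.14 ± 0.81, adjusted p = 1.9e-05), the secreted inhibitor gene Notum at 74.5, 68.8 and 30.2 and 541, 388 and 430.3 (log2 fold change 2.97 ± 0.45, adjusted p = 6.8e-05), and the receptor ubiquitin ligase genes Znrf3 (log2 fold change 2.23 ± 0.38, adjusted p = 0.00021) and Rnf43 (log2 fold change 1.14 ± 0.26, adjusted p = 0.002). Axin2, the common reporter of the pathway, had 1141, 1629 and 2157 and 2588, 3771 and 3946 and did not pass the test (log2 fold change 1.06 ± 0.53, adjusted p = 0.11).

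Fetal-like and regenerative markers were mostly higher in spheroids. Of 32 tested genes of 34 listed, 23 rose and 2 fell (median 4.23), and their share of counts went from 0.0649, 0.0661 and 0.0631% to 0.929, 0.861 and 0.907%. Anxa1, a calcium and phospholipid binding annexin, had 111, 67.7 and 146 in Halo-NLS and 35080, 32560 and 35130 in spheroids (log2 fold change 8.31 ± 0.70, adjusted p = 2.1e-07). Ly6a, which encodes the surface antigen SCA-1, had 44.4, 36.7 and 56.6 and 9283, 4747 and 5640 (log2 fold change 7.16 ± 0.62, adjusted p = 2.7e-07), and Msln, the surface protein mesothelin, had 167, 154 and 520.4 and 41240, 33750 and 27970 (log2 fold change 6.94 ± 0.77, adjusted p = 3.4e-06). All spheroid libraries lay at least 50 times above all Halo-NLS libraries in these 3 genes. Ly6d (log2 fold change 8.76 ± 0.59, adjusted p = 2.4e-08), the alarmin gene Il33 (log2 fold change 9.77 ± 0.50, adjusted p = 2.7e-09) and Cd44, the hyaluronan receptor gene (log2 fold change 4.37 ± 0.52, adjusted p = 6e-06), rose as well. The members that fell were Tnfaip2 (log2 fold change -3.35 ± 0.55, adjusted p = 0.00015) and Igf2bp3, a fetal RNA binding protein gene, with 179, 155 and 49 and 1.18, 0 and 2.7 (at least 42.1-fold lower).

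**Figure D4:**
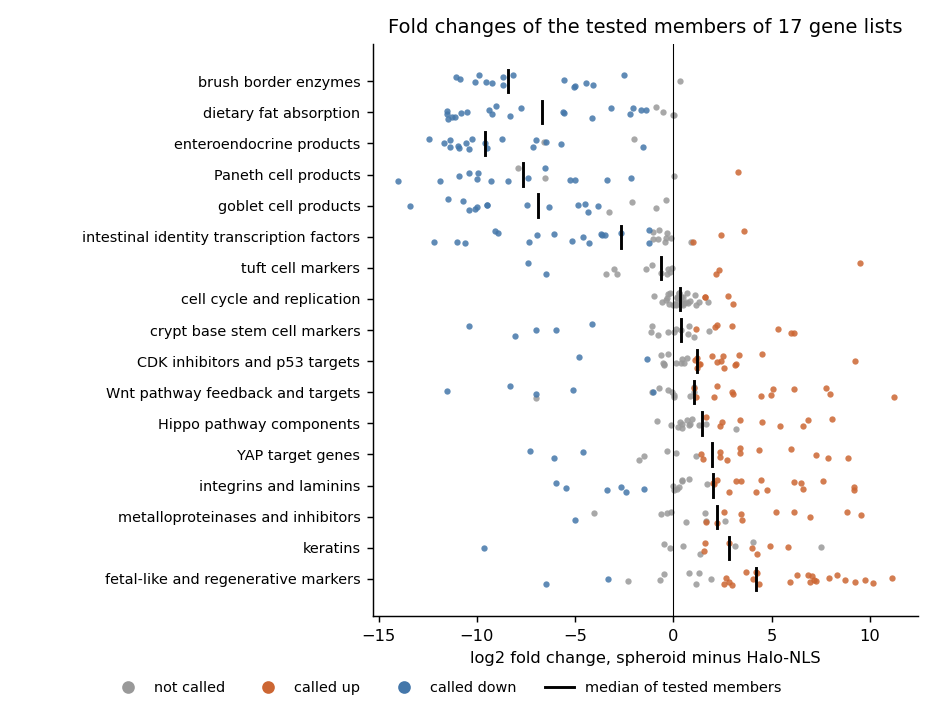
Fitted log2 fold changes (spheroid minus Halo-NLS) of the tested members of 17 gene lists, 1 point per gene coloured by call, with black bars at the median of each list. Medians run from -9.58 for enteroendocrine products and -8.42 for brush border enzymes to 4.23 for fetal-like and regenerative markers, with cell cycle genes at 0.36, and values near the left edge of the secretory lists come from genes at the count limit.

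Hippo signalling restrains YAP and TAZ, which act through TEAD factors. Among Hippo pathway components 9 of 22 tested genes rose (median 1.48). Wwtr1, which encodes TAZ, had 7.84, 6.88 and 23.9 in Halo-NLS and 1361, 1212 and 1128 in spheroids (log2 fold change 6.58 ± 0.48, adjusted p = 5e-08), and Tead4 had 14.4, 17.2 and 46.5 and 1093, 1137 and 1113 (log2 fold change 5.41 ± 0.44, adjusted p = 1.3e-07). Yap1 had 2040, 2458 and 1756 and 2491, 2859 and 3008 and was not called (log2 fold change 0.42 ± 0.18, adjusted p = 0.074). Members of the inhibitory side rose as well, with Amotl1, which holds YAP in the cytoplasm, at 13.1, 5.74 and 11.3 and 3026, 2442 and 2565 (log2 fold change 8.06 ± 0.58, adjusted p = 4.3e-08), and the upstream regulators Frmd6 (log2 fold change 4.51 ± 0.28, adjusted p = 1.2e-08) and Wwc2 (log2 fold change 6.88 ± 0.66, adjusted p = 7.8e-07) and the kinase gene Stk3 (MST2) (log2 fold change 2.49 ± 0.42, adjusted p = 0.00019). Nf2 was not called (log2 fold change -0.12 ± 0.20, adjusted p = 0.64).

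Of 20 YAP target genes tested 12 rose and 3 fell (median 1.96). Myof, a membrane repair gene, had 34, 35.6 and 35.2 in Halo-NLS and 17110, 15080 and 17440 in spheroids (log2 fold change 8.88 ± 0.34, adjusted p = 3.4e-10). Ccn2, which encodes the matrix protein CTGF, had 7.84, 8.03 and 3.77 and 1316, 876 and 877 (log2 fold change 7.26 ± 0.65, adjusted p = 3.9e-07), and Ankrd1 had 6.54, 1.15 and 10.1 and 524, 228 and 387 (log2 fold change 6.00 ± 0.61, adjusted p = 1.4e-06). None of the Halo-NLS libraries approached the spheroid libraries in these genes. Ptpn14, a phosphatase gene that feeds back on YAP (log2 fold change 7.90 ± 0.74, adjusted p = 5.7e-07), Ajuba (log2 fold change 4.35 ± 0.39, adjusted p = 3.5e-07) and Ccn1 (log2 fold change 2.39 ± 0.38, adjusted p = 0.00011) rose too, whereas Arhgef17 was at least 76.9-fold lower. In SOX9-mEGFP spheroids Ccn2 ranged from 1005 to 2279 and Myof from 5612 to 8037.

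Notch and growth factor pathways changed in single members more than as lists. Of 17 Notch genes tested 2 rose and 4 fell (median -0.21, which was 0.07 with library sizes alone). Notch3, a receptor gene, rose from 60.1, 96.4 and 79.2 to 2795, 3386 and 2757 (log2 fold change 5.24 ± 0.48, adjusted p = 4.6e-07), and Notch2 rose (log2 fold change 2.29 ± 0.54, adjusted p = 0.0027). Dll4, a ligand made by secretory cells, fell from 187, 348 and 391 to 5.92, 0 and 2.7 (log2 fold change -6.77 ± 0.57, adjusted p = 2.1e-07), and the ligand gene Jag2 was not called (log2 fold change 0.38 ± 0.29, adjusted p = 0.3). Among EGF family ligands, Hbegf rose (log2 fold change 2.30 ± 0.21, adjusted p = 4.8e-07) and Areg and Nrg4 fell (log2 fold change -1.76 ± 0.45, adjusted p = 0.0048), the latter to 7.11, 12.3 and 3.6 (log2 fold change -4.50 ± 0.67, adjusted p = 6e-05). Of the receptor genes, Egfr rose from 331, 395 and 322 to 746, 705 and 900.3 (log2 fold change 1.17 ± 0.29, adjusted p = 0.0038) and Erbb2 fell from 4428, 8660 and 5672 to 2615, 3054 and 2897 (log2 fold change -1.13 ± 0.30, adjusted p = 0.0063). The Erbb2 call was lost with library sizes alone (log2 fold change -0.84, adjusted p = 0.02) and in 5 of the 6 fits that left out a library (log2 fold change from -1.20 to -0.81).

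In the TGF-beta and BMP pathway 6 of 28 tested genes rose and 7 fell (median -0.13, 0.17 with library sizes alone). Tgfb3, a ligand gene, had 1.31, 0 and 3.77 in Halo-NLS and 746, 769 and 990.3 in spheroids (at least 225-fold higher). Tgfbi, a target of TGF-beta, had 263, 243 and 300.4 and 0, 0 and 0 (at least 88.7-fold lower). Id3, a target of BMP signals, fell from 294, 402 and 468 to 18.9, 23.6 and 14.4 (log2 fold change -4.34 ± 0.28, adjusted p = 1.6e-08), and the receptor gene Tgfbr2 was not called (log2 fold change 1.22 ± 0.36, adjusted p = 0.012).

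Of 29 integrin, laminin and basement membrane genes tested 15 rose and 6 fell (median 2.01). The collagen IV chain genes Col4a1 and Col4a2 rose together, Col4a2 from 14.4, 16.1 and 27.6 to 7058, 13210 and 14250 (log2 fold change 9.21 ± 0.98, adjusted p = 2e-06) and Col4a1 from 13.1, 20.7 and 79.2 to 4417, 8011 and 9565 (log2 fold change 7.60 ± 0.95, adjusted p = 1e-05). The laminin chain gene Lamc1 rose (log2 fold change 3.20 ± 0.43, adjusted p = 2e-05) and the integrin gene Itga6 rose (log2 fold change 2.09 ± 0.32, adjusted p = 6.7e-05), whereas Itga2, the collagen-binding chain, fell from 548, 166 and 153 to 8.29, 0.946 and 4.5 (adjusted p = 3.1e-06). Of 19 metalloproteinases, plasminogen system genes and inhibitors tested 10 rose. Plau, which encodes urokinase, had 0, 0 and 3.77 and 1124, 917 and 1007 (at least 274-fold higher) and its receptor gene Plaur had 114, 152 and 185 and 1885, 1506 and 1503 (log2 fold change 3.44 ± 0.31, adjusted p = 4.5e-07). The inhibitor gene Timp2 had 83.7, 99.8 and 123 and 7615, 7330 and 6979 (log2 fold change 6.16 ± 0.38, adjusted p = 1.1e-08). Mmp7, a metalloproteinase of Paneth cells and tumours, fell from 571, 458 and 371 to 16.6, 14.2 and 12.6 (log2 fold change -5.01 ± 0.30, adjusted p = 9.3e-09) and ranged from 37130 to 44540 in SOX9-mEGFP spheroids.

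Cell junctions changed their composition. Of 25 junction genes tested 7 rose and 6 fell (median 0.27). Cldn15, a claudin that lets sodium pass, had 19950, 29000 and 21460 in Halo-NLS and 8.29, 6.62 and 33.3 in spheroids (log2 fold change -10.46 ± 0.83, adjusted p = 1.2e-07), and Cdh17, the liver-intestine cadherin, had 33070, 26460 and 12950 and 18.9, 16.1 and 56.7 (log2 fold change -9.60 ± 0.57, adjusted p = 8.6e-09). In SOX9-mEGFP spheroids Cdh17 ranged from 18700 to 27450. The gap junction gene Gja1 (connexin 43) rose from 9.15, 2.29 and 25.1 to 1605, 1830 and 2227 (log2 fold change 7.28 ± 0.62, adjusted p = 2.3e-07). Cldn4 was not called (log2 fold change 0.79 ± 0.36, adjusted p = 0.08).

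Of 15 keratin genes tested 7 rose and 1 fell. The basal keratin gene Krt14 had 0, 0 and 11.3 in Halo-NLS and 237, 239 and 183 in spheroids (log2 fold change 5.84 ± 0.75, adjusted p = 3.1e-05), while Krt20, a keratin of differentiated enterocytes, had 11350, 8978 and 3962 and 18.9, 5.68 and 6.3 (log2 fold change -9.66 ± 0.74, adjusted p = 9.1e-08). Krt8 (log2 fold change -0.48 ± 0.23, adjusted p = 0.095) and Krt19 (log2 fold change -0.17 ± 0.20, adjusted p = 0.53), which both conditions expressed, were not called. In the squamous and desmosomal list 11 of 18 tested genes rose (median 2.93, or 1.80 with bounds), including Dsg3, a desmosomal cadherin of skin and oral epithelium, with 3.92, 6.88 and 17.6 and 4281, 2988 and 3976 (log2 fold change 8.61 ± 0.55, adjusted p = 1.4e-08).

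Of 17 tested airway, gland and duct genes 12 rose and 3 fell (median 2.82). Sftpd, the lung collectin surfactant protein D, had 6.54, 3.44 and 7.54 in Halo-NLS and 11760, 11520 and 9655 in spheroids (log2 fold change 10.86 ± 0.48, adjusted p = 1.2e-09), the lactoferrin gene Ltf had 9.15, 11.5 and 13.8 and 10510, 13310 and 18630 (log2 fold change 10.25 ± 0.55, adjusted p = 4e-09), and Wfdc2, a secreted protease inhibitor gene of airway and reproductive tract, had 2.61, 2.29 and 5.03 and 4513, 5245 and 6319 (log2 fold change 10.61 ± 0.53, adjusted p = 2.3e-09). Each of these went from under 15 normalized counts to a high level in every spheroid library. Wfdc2 ranged from 0 to 3.81 in SOX9-mEGFP spheroids and Sftpd from 4258 to 6767. Pigr, the immunoglobulin transporter gene in the same list, fell from 66950, 62790 and 32040 to 67.5, 24.6 and 106 (log2 fold change -9.67 ± 0.61, adjusted p = 1.3e-08). Of 15 gastric genes tested 5 rose and 3 fell, with the pepsinogen C gene Pgc at 14.4, 21.8 and 21.4 and 9529, 4258 and 6842 (log2 fold change 8.47 ± 0.63, adjusted p = 6e-08) and the cathepsin E gene Ctse at 1.31, 4.59 and 7.54 and 2646, 1496 and 1551 (log2 fold change 8.68 ± 0.53, adjusted p = 1.1e-08). Of 21 tested patterning factors of other tissues 11 rose, among them Pax9, a factor of foregut and pharynx (log2 fold change 5.87 ± 0.71, adjusted p = 8.2e-06).

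Immune and defence genes of the epithelium changed in both directions. Ccl25, the chemokine that draws lymphocytes to the small intestine, had 22770, 17960 and 19580 in Halo-NLS and 191, 213 and 228 in spheroids (log2 fold change -6.58 ± 0.57, adjusted p = 2.7e-07), and Ccl28 had 1025, 551 and 473 and 3.55, 1.89 and 3.6 (log2 fold change -7.77 ± 0.54, adjusted p = 3.4e-08). The myeloid growth factor gene Csf1 rose from 11.8, 21.8 and 27.6 to 646, 711 and 823 (log2 fold change 5.14 ± 0.61, adjusted p = 6.6e-06) and Cxcl16 from 320.2, 383 and 382 to 4004, 3401 and 3394 (log2 fold change 3.31 ± 0.26, adjusted p = 1.2e-07), although only 15.2% of the exon bases of Cxcl16 lie outside other genes. Of 19 tested genes of antigen presentation 5 rose and 7 fell. H2-T3, a nonclassical class I gene of enterocytes, had 2345, 2362 and 1937 and 0, 0.946 and 3.6 (log2 fold change -10.29 ± 0.73, adjusted p = 4e-08), while the classical gene H2-K1 did not reach a 2-fold change (log2 fold change -0.87 ± 0.19, adjusted p = 0.0012). Near-identical class I genes share reads, so single members are uncertain. Of 23 interferon-stimulated genes tested 9 rose and 1 fell (median 1.30), with Oas1a, a sensor of viral RNA, at 31.4, 58.5 and 54 and 664, 544 and 686 (log2 fold change 3.71 ± 0.47, adjusted p = 1.3e-05), Ifi27 at 335, 449 and 331 and 2029, 1848 and 2348 (log2 fold change 2.48 ± 0.40, adjusted p = 0.00012), and Irf7 as the member that fell (log2 fold change -1.59 ± 0.42, adjusted p = 0.0056).

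Most proliferation genes were not called, though their share of counts was higher in spheroids. The cell cycle and replication list took 0.218, 0.219 and 0.322% of counts in Halo-NLS and 0.353, 0.517 and 0.557% in spheroids. Of all genes tested 13.6% were upregulated. Of the 36 genes tested in this list 4 rose (median 0.36). These included the D-type cyclin genes Ccnd1, with 1175, 2155 and 2069 in Halo-NLS and 13650, 14680 and 15730 in spheroids (log2 fold change 3.03 ± 0.36, adjusted p = 5.8e-06), and Ccnd2, with 4517, 3484 and 4381 and 28780, 27470 and 28590 (log2 fold change 2.78 ± 0.20, adjusted p = 3.9e-08), and the replication genes Mcm4 (log2 fold change 1.59 ± 0.43, adjusted p = 0.0069) and Rrm1 (log2 fold change 1.63 ± 0.30, adjusted p = 0.00037). Mki67, the usual proliferation marker, had 2258, 578 and 668 and 998, 1274 and 1711 (log2 fold change 0.19 ± 0.80, adjusted p = 0.87), with Halo-NLS replicate 1 above every spheroid library and replicates 2 and 3 below. Top2a varied likewise within Halo-NLS, at 5470, 696 and 1697, against 5049, 5776 and 6437 in spheroids (log2 fold change 1.13 ± 0.62, adjusted p = 0.14).

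Of 27 CDK inhibitors and p53 targets tested 15 rose and 2 fell (median 1.21). Cdkn2a (ENSMUSG00000044303, chromosome 4), the locus of p16 and ARF, had 1.31, 2.29 and 3.77 in Halo-NLS and 1205, 1828 and 1736 in spheroids (at least 428-fold higher, adjusted p = 8.5e-10) and ranged from 1129 to 1912 in SOX9-mEGFP spheroids. Ccng1, a cyclin gene that p53 induces, had 3313, 1354 and 1663 and 22130, 22800 and 18750 (log2 fold change 3.33 ± 0.38, adjusted p = 3.9e-06), and Mdm2, the ubiquitin ligase that degrades p53, had 1063, 680.5 and 388 and 4092, 3335 and 3921 (log2 fold change 2.41 ± 0.31, adjusted p = 1.2e-05). Phlda3 (log2 fold change 3.17 ± 0.26, adjusted p = 1.7e-07) and Eda2r (log2 fold change 4.54 ± 0.61, adjusted p = 2.3e-05), both p53 targets, rose too. Trp53 itself had 3829, 5144 and 5804 and 3158, 4230 and 4890 (log2 fold change -0.27 ± 0.28, adjusted p = 0.45), and Cdkn1a, which encodes p21, had 14610, 14640 and 11090 and 13200, 8598 and 7533 (log2 fold change -0.46 ± 0.33, adjusted p = 0.27), and neither was called. The members that fell were Cdkn1c (p57) (log2 fold change -4.78 ± 0.48, adjusted p = 1.2e-06) and Sesn1 (log2 fold change -1.33 ± 0.27, adjusted p = 0.00086).

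Annexins and S100 proteins, which bind calcium at membranes, rose in 12 of 22 cases and fell in 3. S100a11 had 778, 731 and 1699 in Halo-NLS and 26840, 22310 and 25570 in spheroids (log2 fold change 4.54 ± 0.44, adjusted p = 7.8e-07), and Anxa13, an annexin of enterocytes, had 19320, 9781 and 8553 and 9.48, 6.62 and 27.9 (log2 fold change -9.70 ± 0.69, adjusted p = 4.3e-08). Among contractile genes 6 of 25 rose, including filamin A, Flna (log2 fold change 2.20 ± 0.41, adjusted p = 0.00048), and 3 fell, including Acta1, from 688, 928 and 1060 to 4.74, 1.89 and 6.3 (log2 fold change -7.65 ± 0.42, adjusted p = 4.4e-09). Of 5 mesenchymal genes tested 2 rose and 2 fell (median 0.56, or -0.62 with the 6 libraries alone). Cd44, also in the fetal-like list, had 226, 186 and 184 and 3421, 4236 and 4662, and the fibronectin gene Fn1 rose from a low level (log2 fold change 2.36 ± 0.68, adjusted p = 0.01). The list took 0.00197, 0.00142 and 0.00143% of counts in Halo-NLS and 0.0106, 0.0137 and 0.0153% in spheroids. Vim, which encodes vimentin, fell from 270.5, 254 and 159.6 to 18.9, 22.7 and 17.1 (log2 fold change -3.53 ± 0.66, adjusted p = 0.00043) and Prrx1 was at least 48.9-fold lower. Of 2 smooth muscle markers tested, the intermediate filament genes Synm, with 299.7, 298 and 394 in spheroids (at least 89.1-fold higher), and Des, with 2.61, 0 and 8.8 and 27.2, 55.8 and 51.3 (log2 fold change 3.55 ± 0.91, adjusted p = 0.0048), both rose. Other smooth muscle markers of the list were too low to test. Of 15 heat shock protein genes tested 4 rose and 1 fell, beside 13.6% and 15.3% of all genes tested. The abundant chaperone genes Hspa8 (log2 fold change -0.04 ± 0.17, adjusted p = 0.85) and Hsp90ab1 (log2 fold change 0.81 ± 0.17, adjusted p = 0.0011) were not called.

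The switched genes were set beside the other 3 conditions. Of the 73 genes gained in SOX9-Halo spheroids, 47 had at least 100 normalized counts in every SOX9-mEGFP spheroid library, 1 did in SOX9-mEGFP budding organoids and 0 did in SOX9-Halo budding organoids. Their median level was 176 in SOX9-mEGFP spheroids and 2.31 and 2.6 in the SOX9-mEGFP and SOX9-Halo budding organoids. Of the 188 lost genes, 138 and 131 had at least 100 counts in every library of these budding conditions and 29 in SOX9-mEGFP spheroids, where the median was 18.7, beside 389 and 358 in budding organoids. No test was made on these counts, since the genes were chosen by their level in 2 of the conditions.

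**Figure D5:**
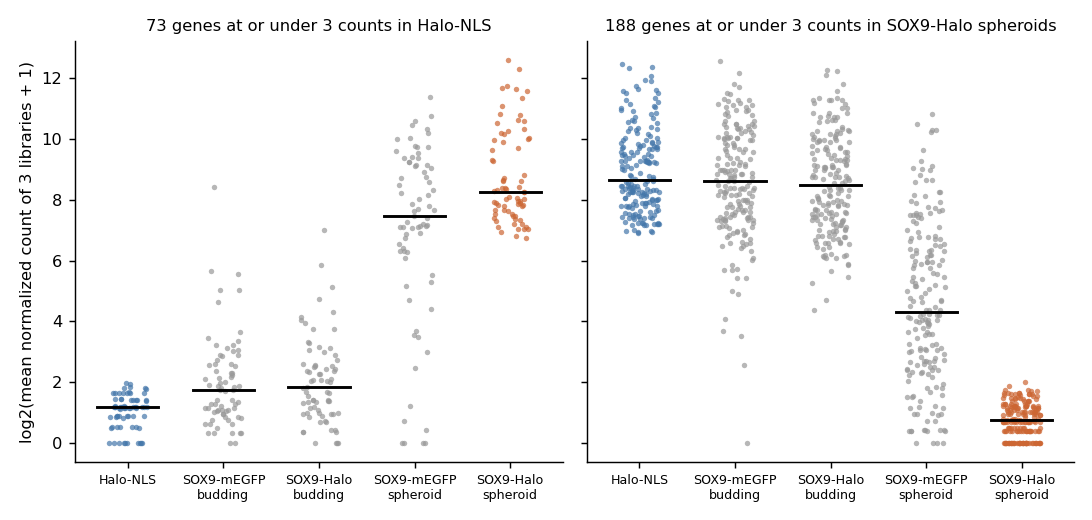
log2(mean normalized count + 1) over 3 libraries in each of the 5 conditions for the 73 genes at or under 3 counts in Halo-NLS (left) and the 188 genes at or under 3 counts in SOX9-Halo spheroids (right), with bars at the median gene. The conditions that chose the genes are coloured, and on the left the SOX9-mEGFP spheroids (median level 176) lie near the SOX9-Halo spheroids, while on the right they (18.7) lie between these and the budding organoids (389 and 358).

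Fold changes were also laid out along the chromosomes, an arrangement looked at after the values were seen. For the 10891 genes that averaged 100 or more normalized counts in the 6 libraries, the median log2 fold change was 0.09. Of 197 windows of 10 Mb with at least 20 such genes, 44 had a median above 0.5 and 1 a median under -0.5. The first 50 Mb of chromosome 15 (GRCm39) stood out, with a median of 1.36 over 85 genes, of which 49 rose (57.6%) and 7 fell, against a median of -0.14 over 354 genes in the rest of that chromosome. Relative to the Halo-NLS mean, the median gene of this segment stood at 1.41, 1.35 and 1.5 in the SOX9-Halo spheroid libraries, at 1.24, 1.23 and 1.16 in SOX9-mEGFP spheroids, at 1.04, 1.17 and 1.18 in SOX9-mEGFP budding organoids, at 0.70, 0.32 and 0.81 in SOX9-Halo budding organoids and at 0.22, -0.11 and -0.33 in the Halo-NLS libraries themselves. On chromosome 8 the segment from 70 to 130 Mb had medians of 0.32, 0.44 and 0.42 in SOX9-Halo spheroids and of -0.34, -0.37 and -0.23 in SOX9-mEGFP spheroids, beside -0.44, -0.12 and -0.31 in SOX9-Halo and -0.29, -0.30 and -0.30 in SOX9-mEGFP budding organoids. The first 70 Mb of chromosome 8 stood higher, at 0.69, 0.67 and 0.7 in SOX9-Halo and 0.46, 0.33 and 0.36 in SOX9-mEGFP spheroids. Over all genes the medians were 0.1, 0.14 and 0.15 in SOX9-Halo and 0.09, 0.04 and 0.08 in SOX9-mEGFP spheroids. The number of DNA copies was not measured, and its part in these values was not tested.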

How the data were processed

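Poly-A RNA was sequenced from 15 libraries of mouse small intestinal organoids, 3 for each of 5 conditions, and each library was assigned to its condition by its label. Per the labels and methods, the authors trimmed reads with cutadapt 4.5, aligned them to GRCm39 with STAR and counted uniquely aligned reads per gene with HTSeq 2.0.2 (union mode, strand ignored). DESeq2 2.11.40.8 and deepTools 3.5.1 are also in the submitters' processing notes. The deposited values used here are these raw counts for 78298 genes, of which 78168 are in GENCODE M39. The deposited tables of the authors' comparisons hold their own fold changes and p-values and were not used, nor was their table of normalized counts. Columns left over were 0. Reads on no gene (1.83% to 5.73% in the 6 libraries) or on more than 1 gene (10.7% to 13.6%) stayed out of all totals.

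In R 4.3.3, genes were filtered with filterByExpr of edgeR 4.0.16 (with limma 3.58.1), counts were scaled by TMM, and a quasi-likelihood model, with a term for each condition, was fitted over the 15 libraries (common biological coefficient of variation 0.302). A call required a Benjamini-Hochberg adjusted p no higher than 0.01, a change of 2-fold or more and a mean over the 15 libraries of 10 or more normalized counts. The steps were tested on simulated data. Standard errors were obtained as the size of the log2 fold change over the square root of F. Where every library of a condition had at most 3 counts, the fold was computed against 3 counts per library and is a lower bound. A member of a list that passed the filter only where it is high had to differ, so list counts and medians are descriptions. The shares over all genes tested, 13.6% up and 15.3% down, stand beside every list count. DESeq2 1.42.0 and the other alternatives are given in the closing section. Python 3.11.15 with matplotlib 3.10.9, pandas 2.3.3 and numpy 2.4.6 was used for tables and figures.

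Named genes are Sox9, the 10 called genes with the largest gain and the 10 with the largest loss in mean normalized count, the 10 called transcription factor genes that rose most and the 10 that fell most among those with a mean of at least 100 normalized counts over the 6 libraries, and from each of 51 lists up to 4 members, the 2 with the highest mean and the called members with the largest rise and fall. Further list members and transcription factors were named after their values were seen. Some genes that the rule names are not reported here. The members and lists were chosen with earlier results of these data known.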

Additional observations from a re-analysis of the deposited data

How the results depend on the processing

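Under the 17 alternatives to the counts of called genes, upregulated genes ranged from 1968 to 3146 with each library left out in turn (highest without Halo-NLS replicate 1) and from 1359 (log2 fold change of at least 2) to 3102 (library sizes alone) otherwise. Downregulated genes ranged from 2407 to 2720 and from 1824 to 3023. In none of these 17 was a called gene called in the opposite direction. DESeq2 called 2557 up and 2809 down, with 2356 and 2651 of the genes called by edgeR. The Sox9 log2 fold change ranged from 4.38 to 5.04 and from 4.63 to 4.95. The 73 genes gained became 192 with a limit of 10 counts and 42 with a normalized count of at least 200, and 74 to 156 with each library left out in turn, an alternative added after seeing the data (156 without Halo-NLS replicate 3). The 188 genes lost became 308 with a limit of 10 counts, 287 and 117 with a normalized count of at least 50 and 200, and 193 to 233 with each library left out. The limits count different genes by construction, and the cause of the shifts with a library left out was not tested.

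With the replicate number as a block, 2570 genes were upregulated and 2739 downregulated in the 15 libraries, and 2421 and 2379 in the 6 libraries alone. Deviations of same-numbered libraries from their condition means correlated at 0.288, 0.227 and 0.00879 over 10895 genes. Differently numbered libraries gave values from -0.402 to 0.263. The labels do not say what a shared number means, and the main fit had no term for it. Whether the number marks a shared batch was not tested.

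Of 190 named genes over 13 alternative fits (2466 values), 2398 values kept their direction and their side of the thresholds, 45 lost the call and 23 gained one, and 0 changed direction. The 13 genes that lost a call somewhere included Des, Erbb2, Esrra, Foxa1, Irf7, Ldha, Pabpc1, Rgs13, Rnf43, Scd2, Zfp503 and mt-Nd1 (Scd2 in 7 of the 13 fits, Erbb2 in 6, Des in 5, Irf7, Ldha and Pabpc1 in 4, Rgs13 and Rnf43 in 3, Foxa1 in 2), and the 9 that gained one were Atp1b1, Cdk4, Dtx4, Ezr, Hsp90ab1, Kcnq1, Pecam1, Sox6 and Tgfbr2. The list medians that changed sign lay near 0 or rested on few genes, as for the Notch list (-0.21 to 0.07 with library sizes alone), and the cause was not tested.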

Other observations

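In 8 genes every one of the 9 libraries of the HaloTag lines (Halo-NLS, SOX9-Halo budding and SOX9-Halo spheroid) lay more than 8 times above the highest of the 6 mEGFP libraries, and the reverse held for 0 genes. These genes were picked after their values were seen. They include Zfp503, a zinc finger gene, with means of 1660 in Halo-NLS, 1169 in SOX9-Halo budding organoids and 3753 in SOX9-Halo spheroids, beside 2.13 and 0.33 in the SOX9-mEGFP budding organoids and spheroids. They also include Gm43305, a predicted gene, with means of 26980, 16980 and 131600 in the HaloTag conditions. ENSMUSG00000127251 is another of the 8. Gm43305 and ENSMUSG00000127251 are thus among the 10 largest gains of the spheroid comparison and were present in the HaloTag control as well. Among the HaloTag-line genes, Fam111a, which encodes a protease tied to replication, had means of 279.0 in Halo-NLS and 1965 in SOX9-Halo spheroids.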
